A study of Mus musculus with 36 samples.

Results

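The 10 genes described here are genes by which bone marrow stroma is known to support blood stem cells. They were chosen as a list of gene symbols (Cxcl12, Kitl, Lepr, Vcam1, Il7, Angpt1, Nes, Foxc1, Ebf1 and Ebf3), and all 10 were found among the 24411 genes of the expression tables. In the marrow, blood stem cells are held close to vessels by stromal cells that secrete the chemokine Cxcl12 and stem cell factor (Kitl) and that carry the leptin receptor (Lepr). The same stroma is known to make interleukin 7 and angiopoietin 1 and to present the adhesion molecule Vcam1, nestin (Nes) has been used to mark part of it, and the transcription factors Foxc1, Ebf1 and Ebf3 are known to maintain its identity. The question put to the data was how far cultured mesenchymal stem cells (MSCs) from bone marrow and from other tissues differ in these genes.

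The MSCs were grown from 8-week-old C57BL6/J mice and come from femoral bone marrow (fBM-MSCs, 3 libraries), vertebral bone marrow (vBM-MSCs, 2 libraries), adipose tissue (A-MSCs, 3 libraries) and lung (P-MSCs, pulmonary, 3 libraries). No further genotype and no treatment is given for the mice, and the 4 tissues were taken from the same mice, but the labels do not say which libraries share a mouse. All cells were expanded on collagen-coated dishes in MSC medium with a Rock inhibitor, so the levels are those of cultured cells and not of stroma in the tissue, and marrow was released by crushing bone whereas adipose tissue and lung were digested with collagenase. Each RNA library held 19569650 to 40517739 counts assigned to genes, and open chromatin was given as 1 list of ATAC-seq summits per tissue, called on pooled replicates.

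The cell type labels were checked against RNA of the surface proteins by which MSCs are recognised. Itgb1 (CD29) lay between 466 and 1051 TPM (a level scaled for transcript length and library total) over the 11 libraries, and Cd44 between 229 and 720 TPM. Ly6a (Sca-1) ranged from 42.3 to 805 TPM and was higher in bone marrow MSCs by 2.71 on the log2 scale (adjusted p = 5.7e-07 by the edgeR test described below). Of the proteins that MSCs lack, Ptprc (CD45) did not exceed 0.35 TPM and Pecam1 (CD31) reached 3.84 TPM in 1 A-MSC library, whereas Cd34 averaged 54.0 TPM in fBM-MSCs against 7.39, 1.04 and 3.25 TPM in vBM-MSCs, A-MSCs and P-MSCs. Summed levels of 5 osteoblast markers (Sp7, Bglap, Bglap2, Ibsp and Dmp1) were 648, 1200 and 3970 TPM in the 3 fBM-MSC libraries, 29.4 and 533 TPM in the 2 vBM-MSC libraries and at most 3.39 TPM in the other 6. Summed levels of 4 cycling genes ran the other way, from 22.1 to 47.1 TPM in the bone marrow libraries and from 182 to 374 TPM in the others. Mesothelial markers (6 genes) summed to 1.84 to 12.3 TPM in the bone marrow libraries and to 54.0 to 69.2 TPM in the others. In P-MSCs the keratin Krt19 made up most of that sum (mean 54.9 TPM), with Wt1 and Lrrn4 at 0, whereas Wt1 averaged 12.4 TPM and Upk3b 11.4 TPM in A-MSCs. The 7 pericyte and smooth muscle markers summed to 720 to 847 TPM in fBM-MSCs, 4370 to 6030 TPM in vBM-MSCs, 3090 to 3550 TPM in P-MSCs and 9000 to 9470 TPM in A-MSCs. Acta2 carried these sums, with means from 778 to 8310 TPM. Of the 5 genes of that list that were tested, 4 were called lower in bone marrow MSCs and Rgs5 was called higher, with a highest value of 3.11 TPM. The 15 markers of blood and B cells summed to 24.0 to 51.3 TPM in the bone marrow libraries, 18.0 to 25.0 TPM in A-MSCs and 9.44 to 12.5 TPM in P-MSCs, and of the 3 tested Lyz2 was higher in bone marrow MSCs by 2.65 on the log2 scale (adjusted p = 9.3e-06), Csf1r was lower by 2.24 (adjusted p = 1.7e-05) and Cd68 was not called (-0.28). The 8 endothelial markers summed to at most 1.19 TPM in the bone marrow libraries, and to 2.55 to 55.5 TPM in the others, with the highest sum in A-MSC replicate 1. Emcn, at up to 49.5 TPM, made up most of that highest sum. In A-MSCs Cdh5, Kdr and Vwf averaged 0.66, 0.32 and 0.02 TPM. These sets of markers moved with tissue origin as several niche genes did, and their part in the results below was not tested. In bulk libraries, fewer cells of a type and less RNA per cell cannot be told apart.

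Averaged over tissues, bone marrow MSCs had more RNA of Il7, Angpt1, Foxc1, Ebf1 and Ebf3 than the non-bone marrow MSCs and less of Vcam1. In the main fit Ebf1 and Vcam1 were called against P-MSCs in each bone marrow tissue, and against A-MSCs in neither. Mean Ebf1 was 6.89 TPM in fBM-MSCs and 6.88 TPM in A-MSCs, and mean Vcam1 was higher in vBM-MSCs (62.6 TPM) than in A-MSCs (42.6 TPM). Il7 and Angpt1 were not called in vBM-MSCs against A-MSCs, nor was Ebf3 in either tissue against P-MSCs. Cxcl12 and Kitl, the defining secreted factors of the niche, and Nes were present in every library of every tissue, and their differences between bone marrow and non-bone marrow did not pass the test. Lepr RNA was near absent in every tissue. The contrast was fitted with edgeR's quasi-likelihood test on the counts of the 12509 genes that reached 1 CPM (counts scaled for the library total alone) in at least 2 libraries, as the mean of fBM-MSCs and vBM-MSCs against the mean of A-MSCs and P-MSCs, and genes were called at a Benjamini-Hochberg adjusted p under 0.05 over all genes tested. Of the 10 genes 9 passed this filter, Angpt1 and Ebf3 only through bone marrow libraries. Of these 9, 5 were called higher in bone marrow MSCs, where 24.8% of all genes tested were called higher, and 1 was called lower, where 22.4% of all genes were. The number called lower was 2 without fBM-MSC replicate 1 or 3 and 0 without vBM-MSC replicate 2. Since the filter let Angpt1 and Ebf3 in through the libraries where they were high, the count is also given without them: of the other 7 genes 3 were called higher and 1 lower. The median log2 fold change of the 9 was 1.504, that of these 7 was -0.15, and that of all genes tested was 0.03. Differences among the 4 tissues of any kind were called for 7 of the 9 (Cxcl12, Vcam1, Il7, Angpt1, Foxc1, Ebf1 and Ebf3) against 60.6% of all genes, so that share stood little above the background. The call of Cxcl12 was lost without P-MSC replicate 1 or 3 (adjusted p of 0.056 and 0.050) and that of Ebf3 without A-MSC replicate 1 or 2 (0.059 and 0.057). Kitl and Nes were called as well without fBM-MSC replicate 1 (0.0093 and 0.012) or 3 (0.0020 and 0.016).

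**Figure D1:**
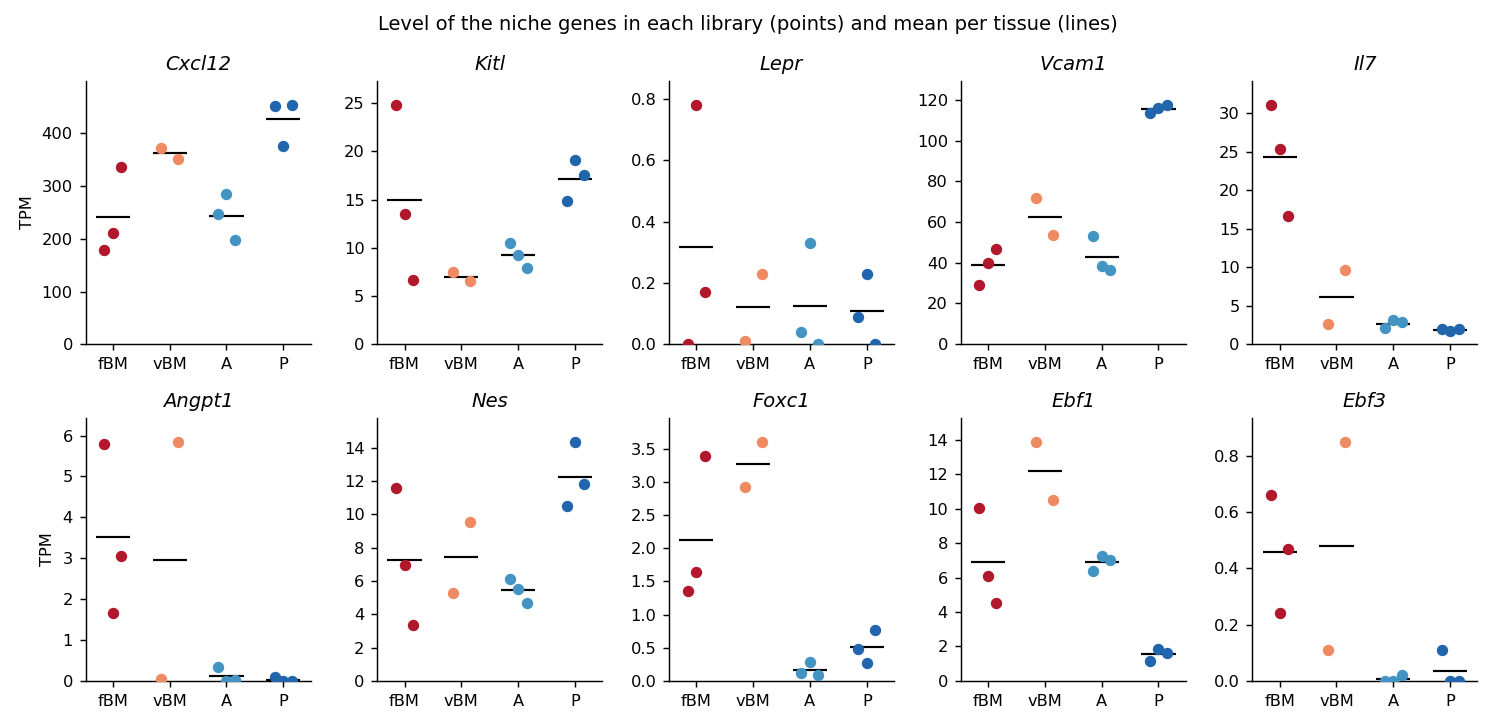
TPM of each niche gene (vertical axis, linear and from 0, a separate scale for each gene) in the 11 libraries, shown as points by tissue (fBM, vBM, A and P for fBM-MSCs, vBM-MSCs, A-MSCs and P-MSCs), with the mean of each tissue as a line. Vcam1 stood between 113 and 117 TPM in the P-MSC libraries and Il7 between 16.6 and 31.1 TPM in the fBM-MSC libraries, each above every other library, while 1 vBM-MSC library stayed near 0 for Angpt1.

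Among the secreted factors, Cxcl12 (chr6:117168535-117181368, plus strand, mm10), the chemokine that keeps blood stem cells and B cell progenitors in the marrow, was the most abundant of the 10 genes. It reached 178, 211 and 337 TPM in fBM-MSCs, 373 and 351 TPM in vBM-MSCs, 247, 286 and 197 TPM in A-MSCs, and 452, 376 and 454 TPM in P-MSCs. The P-MSC libraries were thus the 3 highest of the 11, and the ranges of fBM-MSCs and A-MSCs overlapped. Bone marrow and non-bone marrow MSCs differed by -0.21 on the log2 scale (SE 0.16, adjusted p = 0.31). In the order of mean TPM (P-MSCs, vBM-MSCs, A-MSCs, fBM-MSCs) no pair of neighbours differed by the test, with adjusted p of 0.30, 0.21 and 0.79. Cxcl12 was 1.80-fold lower in fBM-MSCs than in P-MSCs (-0.85 on the log2 scale, SE 0.22, adjusted p = 0.0072) and 1.70-fold lower in A-MSCs than in P-MSCs (-0.76, SE 0.22, adjusted p = 0.020). The second of these calls was lost when A-MSC replicate 1 or 3 or P-MSC replicate 1 or 3 was left out, with adjusted p of 0.059, 0.081, 0.068 and 0.060. Without fBM-MSC replicate 3, the highest fBM-MSC library, Cxcl12 was called lower in bone marrow MSCs (log2 fold change -0.37, adjusted p = 0.016).

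The counting program gave for each gene the mean length of the transcripts to which it assigned reads, which moves where the mixture of isoforms does. For Cxcl12 this length was 2198, 2165 and 2154 bases in the P-MSC libraries and between 1925 and 2015 bases in the other 8, so that P-MSCs did not overlap with the other tissues. RefSeq lists 3 Cxcl12 transcripts of 1878, 3173 and 5670 bases. No test was run on the lengths, and the RefSeq release behind the deposited values may differ from the one used here. TPM corrects for this length, and the counts do not: Cxcl12 took 508 to 622 CPM in P-MSCs and 213 to 424 CPM in the other libraries.

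**Figure D2:**
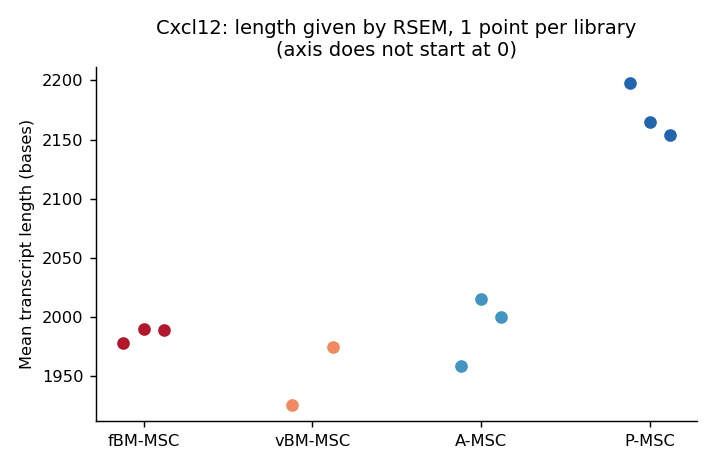
Mean Cxcl12 transcript length in bases as given with the expression values (vertical axis, not starting at 0) for each of the 11 libraries, by tissue. The 3 P-MSC libraries lie between 2154 and 2198 bases and the other 8 between 1925 and 2015 bases.

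Kitl (chr10:100015821-100100416, plus strand), the ligand of the receptor Kit on blood stem cells, was present in every library and spread widely among fBM-MSCs. Its TPM were 24.8, 13.5 and 6.66 in fBM-MSCs, 7.48 and 6.55 in vBM-MSCs, 10.5, 9.23 and 7.87 in A-MSCs, and 14.9, 19.1 and 17.6 in P-MSCs. The fBM-MSC libraries spanned nearly the whole range of the 11. Bone marrow against non-bone marrow differed by -0.28 on the log2 scale (SE 0.27, adjusted p = 0.41), which became -0.59 with a call (adjusted p = 0.020) when fBM-MSC replicate 1 was left out. Its 2 parts had opposite signs, 0.29 for fBM-MSCs (adjusted p = 0.46) and -0.85 for vBM-MSCs (adjusted p = 0.10), and the latter was called with DESeq2 (0.037) and without fBM-MSC replicate 1 or 3 (0.017 and 0.014). Without fBM-MSC replicate 3 the former was 0.65 and was called (adjusted p = 0.029). In the main fit the sole call among the 6 pairs of tissues was 2.30-fold less Kitl in vBM-MSCs than in P-MSCs (-1.20 on the log2 scale, SE 0.41, adjusted p = 0.038). That call was lost without A-MSC replicate 2 or any P-MSC replicate, with adjusted p from 0.051 to 0.089. Without vBM-MSC replicate 1 or 2, which leaves 1 vBM-MSC library, the log2 fold change was -1.40 and -1.03. With those 2 tissues fitted alone, Kitl was called lower in A-MSCs than in P-MSCs (-0.71, adjusted p = 0.00076). So it was without fBM-MSC replicate 1 or 3 (0.032 and 0.028). More Kitl in fBM-MSCs than in vBM-MSCs was called with DESeq2 (adjusted p = 0.020) and without fBM-MSC replicate 3 (0.0057).

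Il7 (chr3:7572028-7613760, minus strand), the cytokine that early B cells need, was highest in fBM-MSCs. It stood at 31.1, 25.4 and 16.6 TPM in fBM-MSCs, 2.66 and 9.69 TPM in vBM-MSCs, 2.09, 3.13 and 2.82 TPM in A-MSCs, and 1.95, 1.74 and 1.98 TPM in P-MSCs. The 3 fBM-MSC libraries lay above all others, and vBM-MSC replicate 1 lay within the A-MSC range. Bone marrow MSCs had 5.37-fold more Il7 than non-bone marrow MSCs (a log2 difference of 2.43, SE 0.28, adjusted p = 3.5e-05). The fold change against A-MSCs and P-MSCs together on the log2 scale was 3.46 for fBM-MSCs and 1.39 for vBM-MSCs (adjusted p = 0.0093), and the latter was 0.32 without vBM-MSC replicate 2 and no longer called (adjusted p = 0.51). Il7 was 4.19-fold higher in fBM-MSCs than in vBM-MSCs (log2 fold change 2.07, SE 0.43, adjusted p = 0.011), and it was the only 1 of the 9 genes called in that pair, where 12.8% of all genes tested were called. With the spread estimated from those 2 tissues alone, the difference was again 2.07 and the adjusted p was 0.097. Between vBM-MSCs and P-MSCs it was called at 3.35-fold (adjusted p = 0.0059), a call lost without vBM-MSC replicate 2 (adjusted p = 0.16), and between vBM-MSCs and A-MSCs it was not (adjusted p = 0.082, and 0.0054 without vBM-MSC replicate 1). Il7 shares 105 exon bases with Gm16685 on the opposite strand, and the libraries kept no strand, so reads from there cannot be assigned to either gene.

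Angpt1 (chr15:42424667-42676977, minus strand), a ligand of the receptor Tek on vessels and blood stem cells, was found mainly in bone marrow MSCs, but not in every bone marrow library. It reached 5.80, 1.66 and 3.06 TPM in fBM-MSCs (321, 152 and 329 counts), 0.04 and 5.85 TPM in vBM-MSCs (3 and 589 counts), 0.34, 0.01 and 0.03 TPM in A-MSCs (30, 1 and 3 counts), and 0.09, 0 and 0 TPM in P-MSCs (11, 0 and 0 counts). A count of 0 in the latter 2 libraries allows up to 3 counts, which is 0.0965 and 0.0872 CPM. The 2 vBM-MSC libraries thus held the highest value and 1 of the low values of the 11, and vBM-MSC replicate 1 lay within the range of the non-bone marrow libraries. That library also had the lowest sum of osteoblast markers among the bone marrow libraries (29.4 TPM) and the lowest Ebf3 and Il7 values among them. Among the fBM-MSC libraries, however, the one with the lowest osteoblast sum (648 TPM) had the highest Angpt1, Il7 and Ebf3 values. A part of osteoblast content in these levels was not tested. Angpt1 passed the filter only through bone marrow libraries. Bone marrow MSCs exceeded the others by a fitted 48.1-fold (log2 fold change 5.59, SE 1.169, adjusted p = 0.0022), and without vBM-MSC replicate 2 the log2 fold change was 2.52 and the call was lost (adjusted p = 0.20). It was 6.89 without A-MSC replicate 1 and 7.91 without P-MSC replicate 1, the 2 non-bone marrow libraries with the most Angpt1, of which A-MSC replicate 1 also held the highest endothelial sum (55.5 TPM, most of it Emcn). For vBM-MSCs alone against the non-bone marrow tissues it was 5.39 (adjusted p = 0.0071), a call that ended without vBM-MSC replicate 2 (-0.74, adjusted p = 0.83) and with limma on log2(TPM + 1) or log2(TPM + 0.1) (adjusted p of 0.078 and 0.091). On a scale of log2(TPM + 1), which damps low values, the contrast of both bone marrow tissues was 1.64.

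Vcam1 (chr3:116110020-116129688, minus strand), the adhesion molecule by which stroma binds blood cells through the integrin of Itga4 and Itgb1, was the 1 niche gene called lower in bone marrow MSCs. Its protein, CD106, was among the surface markers used to recognise these MSCs. It reached 29.3, 40.0 and 46.9 TPM in fBM-MSCs, 71.8 and 53.5 TPM in vBM-MSCs, 53.1, 38.5 and 36.3 TPM in A-MSCs, and 113, 116 and 117 TPM in P-MSCs. P-MSCs were above every other library, both vBM-MSC libraries lay above those of fBM-MSCs and A-MSCs, and the latter tissues overlapped. Between fBM-MSCs and vBM-MSCs the difference was not called (adjusted p = 0.063), but was with DESeq2 (0.025). The bone marrow contrast was -0.50 on the log2 scale (SE 0.15, adjusted p = 0.015), or 1.41-fold lower, and was no longer called without vBM-MSC replicate 2 (-0.36, adjusted p = 0.073). By tissue, fBM-MSCs were 1.78-fold lower than the mean of A-MSCs and P-MSCs (adjusted p = 0.0022), and for vBM-MSCs the difference was -0.16 (SE 0.20, adjusted p = 0.56). P-MSCs exceeded A-MSCs 2.38-fold (adjusted p = 0.00093), fBM-MSCs 2.74-fold (adjusted p = 0.00012) and vBM-MSCs 1.72-fold (adjusted p = 0.015, and 0.13 without vBM-MSC replicate 2).

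Open chromatin in and around Vcam1 was found in all 4 tissues, with 9 summits in A-MSCs and 8 in P-MSCs, against 5 in vBM-MSCs and 1 in fBM-MSCs. A summit in open chromatin was counted at a −log10 q of at least 7, and its fold enrichment is the read density there over the background that the peak caller assumed. With 1 pooled list per tissue there are no replicates and no test, and heights are best read by their rank within a list. Of 10 Vcam1 sites within the gene or 20 kb of it, 1 in an intron (chr3:116114643) was open in all 4 tissues. Another 3 were shared by A-MSCs and P-MSCs only, and 2 met the threshold in P-MSCs only. Over all 93637 sites of the lists, 31.9% were held by all 4, 6.78% by A-MSCs and P-MSCs only and 7.74% by P-MSCs only. The site in all 4 tissues was higher in A-MSCs (15.4) than in P-MSCs (13.6). The highest of all lay 24.6 kb from the start site, beyond the end of the gene, with a fold enrichment of 24.3 in P-MSCs, a height reached by 5.99% of the summits of that list. The fBM-MSC and A-MSC lists held a region within 500 bases of it but no summit at the threshold there. At the Vcam1 start site itself there was no summit in fBM-MSCs at any q, 1 of fold enrichment 6.25 in vBM-MSCs and in A-MSCs, and 1 of 4.41 below the threshold in P-MSCs. The 300 bases around the P-MSC summit (chr3:116104956-116105255, plus strand, mm10) are shown because they hold the highest Vcam1 summit of any list, which met the threshold in P-MSCs only. They held neither of the motifs searched.
Vcam1 downstream site: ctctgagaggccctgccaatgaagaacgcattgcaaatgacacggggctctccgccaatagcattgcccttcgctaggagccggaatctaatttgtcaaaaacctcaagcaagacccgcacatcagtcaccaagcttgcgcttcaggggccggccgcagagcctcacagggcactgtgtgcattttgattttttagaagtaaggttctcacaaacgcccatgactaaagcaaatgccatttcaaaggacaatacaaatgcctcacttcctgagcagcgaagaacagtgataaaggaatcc

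Lepr (chr4:101717407-101815352, plus strand), the receptor by which the niche stroma of adult marrow is usually recognised, did not pass the filter. It reached 0, 0.78 and 0.17 TPM in fBM-MSCs, 0.01 and 0.23 TPM in vBM-MSCs, 0.04, 0.33 and 0 TPM in A-MSCs, and 0.09, 0.23 and 0 TPM in P-MSCs. The highest library held 55 counts, or 1.73 CPM, and 1 library each of fBM-MSCs, A-MSCs and P-MSCs held none. With no filter, the bone marrow contrast was 0.80 on the log2 scale (adjusted p = 0.76). No list had an open summit within 1 kb of either Lepr start site at any q, and the gene and its flanks held 2 sites, 2.0 kb before the start in fBM-MSCs (fold enrichment 6.25) and 6.3 kb into the gene in P-MSCs (6.99).

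Nes (chr3:87971093-87980451, plus strand), an intermediate filament protein used to mark perivascular stroma, was present everywhere. Its TPM were 11.6, 6.96 and 3.34 in fBM-MSCs, 5.30 and 9.55 in vBM-MSCs, 6.10, 5.51 and 4.69 in A-MSCs, and 10.5, 14.4 and 11.8 in P-MSCs. The fBM-MSC libraries again spread over most of the range, and P-MSCs lay above A-MSCs without overlap. The bone marrow contrast was -0.15 (SE 0.26, adjusted p = 0.67) and the difference of A-MSCs from P-MSCs was -0.98 (SE 0.35, adjusted p = 0.055). The latter difference was called with DESeq2 (adjusted p = 0.016), with no filter on low counts (adjusted p = 0.032) and with the 2 tissues fitted alone (adjusted p = 0.00015). Downstream of the gene, 15.9 kb from the start, a site was open in all 4 lists, with fold enrichments of 23.2 in P-MSCs and 23.9 in A-MSCs, against 10.3 in fBM-MSCs and 11.8 in vBM-MSCs.

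Foxc1 (chr13:31806646-31810635, plus strand, 1 exon), the forkhead factor known to sustain the marrow stroma that expresses Cxcl12, separated the 2 kinds of MSCs completely. Its TPM were 1.36, 1.64 and 3.39 in fBM-MSCs, 2.93 and 3.61 in vBM-MSCs, 0.12, 0.28 and 0.09 in A-MSCs, and 0.48, 0.27 and 0.77 in P-MSCs. All 5 bone marrow libraries were above all 6 others. It was 9.14-fold higher in bone marrow MSCs (a log2 difference of 3.19, SE 0.40, adjusted p = 6.5e-05), 12.2-fold higher in fBM-MSCs and 18.1-fold higher in vBM-MSCs than in A-MSCs, and 4.61-fold and 6.83-fold higher in them than in P-MSCs, with adjusted p of at most 0.0050. Between P-MSCs and A-MSCs (log2 fold change -1.41 for A-MSCs, adjusted p = 0.074, and 0.045 with DESeq2 and 0.034 without A-MSC replicate 2) and between vBM-MSCs and fBM-MSCs (adjusted p = 0.55) no difference was called. The level was low throughout, at most 3.61 TPM.

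The Foxc1 start site was open in all 4 tissues, including those with little Foxc1 RNA. The summit there had the highest fold enrichment of any promoter of the 10 genes in both bone marrow lists, 29.8 in fBM-MSCs and 27.6 in vBM-MSCs, heights reached by 1.37% and 2.36% of the summits of those lists. In A-MSCs it was 18.4 (9.16%) and in P-MSCs 21.7 (7.76%). Upstream, 5 sites between 2.9 and 14.0 kb before the start met the threshold in vBM-MSCs only, with fold enrichments of 5.52 to 6.99. Of all sites of the lists 6.76% were held by vBM-MSCs only, and of the 43033 sites with a highest fold enrichment of 5.52 to 8.46 the share was 12.9%. For 2 of these 5, none of the other lists held a region within 500 bases at any q. The 150 bases directly before the start (chr13:31806496-31806645, plus strand, mm10) are shown because the summit of fBM-MSCs lies at their end.
Foxc1 before the start site: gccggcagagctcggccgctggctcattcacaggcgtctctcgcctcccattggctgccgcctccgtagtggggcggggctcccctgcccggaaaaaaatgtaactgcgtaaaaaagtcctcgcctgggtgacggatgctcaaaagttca

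Ebf1 (chr11:44618100-45008096, plus strand), which has a known role in both B cells and marrow stroma, was low in P-MSCs and similar in fBM-MSCs and A-MSCs. It stood at 10.04, 6.12 and 4.52 TPM in fBM-MSCs, 13.9 and 10.5 TPM in vBM-MSCs, 6.38, 7.27 and 7.0 TPM in A-MSCs, and 1.18, 1.83 and 1.65 TPM in P-MSCs. The A-MSC libraries lay within the fBM-MSC range. The bone marrow contrast of 2.84-fold (log2 fold change 1.504, SE 0.21, adjusted p = 0.00014) averaged over unlike tissues. Against P-MSCs, Ebf1 was 4.85-fold higher in fBM-MSCs (adjusted p = 8.5e-05), 8.42-fold higher in vBM-MSCs (2.9e-05) and 5.07-fold higher in A-MSCs (0.00026). Against A-MSCs the log2 fold changes were -0.07 (SE 0.28) for fBM-MSCs and 0.73 (SE 0.31, adjusted p = 0.10) for vBM-MSCs. The latter was called without fBM-MSC replicate 1 (0.033) and with the 2 tissues fitted alone (0.034), and without fBM-MSC replicate 1 Ebf1 was also called lower in fBM-MSCs than in vBM-MSCs (-1.20, adjusted p = 0.012). The 5 adipocyte markers, of which Lep was listed at 0 everywhere, were also lowest in P-MSCs, with sums of 2.68 to 3.84 TPM against 22 to 158 TPM in the other tissues, and their part was not tested. Fabp4 made up most of these sums, with means of 40.8, 40.4, 100 and 3.08 TPM in fBM-MSCs, vBM-MSCs, A-MSCs and P-MSCs. The B cell genes Pax5, Cd79a and Cd79b were below 1 TPM in all 11 libraries. Vpreb1, a pre-B cell gene, reached at most 2.61 TPM, with a mean of 0.06 TPM in P-MSCs and means of 1.40 to 2.31 TPM elsewhere, and its part was not tested either. Ebf1 had 36 open sites in or near the gene, the most of the 10 genes over the longest of them, with 9 open in all 4 tissues, 5 in A-MSCs and P-MSCs only and none in the 2 bone marrow tissues only. Over all sites of the lists these shares were 31.9%, 6.78% and 3.77%. In P-MSCs, where its RNA was lowest, the summit 0.9 kb before the start had a fold enrichment of 23.5, where A-MSCs had 20.2, fBM-MSCs 16.2 and vBM-MSCs 14.0.

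Ebf3 (chr7:137193671-137314445, minus strand), a relative of Ebf1 known from the same marrow stroma, was detected almost only in bone marrow MSCs and at low levels. It reached 0.66, 0.24 and 0.47 TPM in fBM-MSCs (42, 26 and 59 counts), 0.11 and 0.85 TPM in vBM-MSCs (10 and 99 counts), 0, 0 and 0.02 TPM in A-MSCs (0, 0 and 3 counts), and 0.11, 0 and 0 TPM in P-MSCs (15, 0 and 0 counts). P-MSC replicate 1 reached the level of the lower vBM-MSC library. Ebf3 passed the filter only through bone marrow libraries, where it was high. The bone marrow contrast was called (log2 fold change 4.57, SE 1.13, adjusted p = 0.0059) and kept its call in each of the 20 alternatives, although its size ranged from 0.50 on log2(TPM + 1) to 7.08 without P-MSC replicate 1, and was 6.15 without A-MSC replicate 3 and 3.55 without vBM-MSC replicate 2. For vBM-MSCs alone against the non-bone marrow tissues it was 4.54 (adjusted p = 0.016), and 2.50 without vBM-MSC replicate 2, which ended the call (adjusted p = 0.29). With limma on log2(TPM + 1) the call for vBM-MSCs alone was lost as well (0.49, adjusted p = 0.058). Among pairs, Ebf3 was called in fBM-MSCs against A-MSCs (adjusted p = 0.021) and in vBM-MSCs against A-MSCs (0.038) and was not called against P-MSCs (0.056 and 0.080). The former of these, fBM-MSCs against P-MSCs, was called with DESeq2 (0.028), with limma on log2(TPM + 1) or log2(TPM + 0.1) (0.044 and 0.015), with the 2 tissues fitted alone (0.044) and without vBM-MSC replicate 1 (0.045). The call for fBM-MSCs against A-MSCs was lost without A-MSC replicate 1 or 2 (0.066 and 0.067), and that for vBM-MSCs was lost without vBM-MSC replicate 2 (0.25) or any A-MSC replicate (0.099, 0.10 and 0.051). Without P-MSC replicate 1, Ebf3 was called against P-MSCs in both bone marrow tissues (0.010 and 0.015).

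Although A-MSCs and P-MSCs held little Ebf3 RNA, its start site was open in all 4 lists, with fold enrichments of 14.7 in P-MSCs and 18.0 in A-MSCs, against 15.5 in fBM-MSCs and 16.9 in vBM-MSCs. The lists differed inside the gene. Of 8 intronic sites, 6 were at the threshold in fBM-MSCs only and 2 in fBM-MSCs and vBM-MSCs only, and none of the 8 met the threshold in A-MSCs or P-MSCs. Over all sites of the lists, 11.1% were held by fBM-MSCs only and 3.77% by the 2 bone marrow tissues only. The intronic summits were of modest height, with fold enrichments of 5.52 to 8.46, and over the 43033 sites of that height these shares were 20% and 4.12%. The 8 sites lie in 1 gene and are not independent of each other, and for 4 of the 6 no other list held a region within 500 bases at any q. The A-MSC list held such a region at 2 of the 8, those at 46.8 and 30.5 kb, and the P-MSC list at none of them. Summits of any q within the gene or 20 kb of it were about as many in A-MSCs (13) as in vBM-MSCs (14), beside 29 for fBM-MSCs and 5 for P-MSCs. For Ebf3, 3 sequences are shown, on the plus strand of mm10, to set a start site open in every tissue beside intronic sites found in bone marrow MSCs: the 150 bases directly before the start (chr7:137314446-137314595), the intronic site 4.1 kb into the gene that both bone marrow lists held (chr7:137310188-137310487) and an intronic site of fBM-MSCs 47.8 kb into the gene (chr7:137266524-137266823). Capitals mark matches to CCCNNGGG, a core of the sequence that EBF factors bind, which reads the same on both strands.
Ebf3 before the start site: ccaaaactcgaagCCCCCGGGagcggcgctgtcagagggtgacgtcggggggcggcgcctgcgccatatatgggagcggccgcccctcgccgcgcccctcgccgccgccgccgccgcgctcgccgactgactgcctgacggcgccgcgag
Ebf3 intron, both bone marrow lists: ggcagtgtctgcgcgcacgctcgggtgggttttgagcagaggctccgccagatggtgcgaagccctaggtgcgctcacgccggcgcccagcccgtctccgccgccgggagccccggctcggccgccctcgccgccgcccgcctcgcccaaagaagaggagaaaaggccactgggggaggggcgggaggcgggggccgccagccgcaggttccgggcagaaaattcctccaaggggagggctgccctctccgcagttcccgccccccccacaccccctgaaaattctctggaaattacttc
Ebf3 intron, fBM-MSC list: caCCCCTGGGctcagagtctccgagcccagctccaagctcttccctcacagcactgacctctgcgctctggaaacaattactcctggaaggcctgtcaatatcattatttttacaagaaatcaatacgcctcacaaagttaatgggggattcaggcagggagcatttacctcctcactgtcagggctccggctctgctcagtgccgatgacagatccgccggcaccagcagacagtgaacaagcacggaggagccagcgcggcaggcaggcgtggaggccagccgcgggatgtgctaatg

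CCCNNGGG was found in the 300 bases around 4 of the 107 open sites of the 10 genes (3.7%): the Ebf3 start site, the Ebf3 intronic site at 47.8 kb, and 1 site downstream of each of Nes and Foxc1. Among all summits of the 4 lists, 11.8% to 13.7% held it. GTAAACA, a motif of forkhead factors, searched on both strands as GTAAACA and TGTTTAC, was found at 3 sites (2.8%), 1 each of Kitl, Lepr and Ebf1, where 3.4% to 4.2% of all summits held it. The RefSeq promoter table (mm10, windows around the start) held 7 of the 10 genes, and of these Ebf3 alone had CCCNNGGG, which 13.7% of the 32851 promoters had, and none had the forkhead motif, which 3.6% had. Such matches describe letters and not binding.

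Open start sites of the niche genes were counted beside those of all expressed genes, with no test. Within 1 kb of a start site, 8 of the 10 genes had a summit in P-MSCs and 9 in A-MSCs, against 8 in vBM-MSCs and 7 in fBM-MSCs, beside 88.8%, 89.6%, 89.0% and 87.1% of 11519 expressed genes with an annotated start. Lepr had none in any list, Vcam1 lacked one in fBM-MSCs and P-MSCs, and Nes lacked one in both bone marrow lists at the threshold, although weaker summits of fold enrichment 4.41 and 5.15 lay there. The Cxcl12 start site had only modest summits of 5.52 to 6.62 in the 4 lists, heights reached by 48.2% to 52.9% of the summits of those lists. At the Kitl start site the fold enrichment was 15.4 in P-MSCs and 12.1 in A-MSCs, against 9.20 in fBM-MSCs and 10.7 in vBM-MSCs. The Il7 summit, which lies between its 2 annotated start sites, was 13.6 in P-MSCs and 14.0 in A-MSCs, against 16.6 in fBM-MSCs and 14.7 in vBM-MSCs. The Angpt1 start site, 6.25 in fBM-MSCs and 7.36 in P-MSCs, did not set apart the tissues that differed in its RNA.

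**Figure D3:**
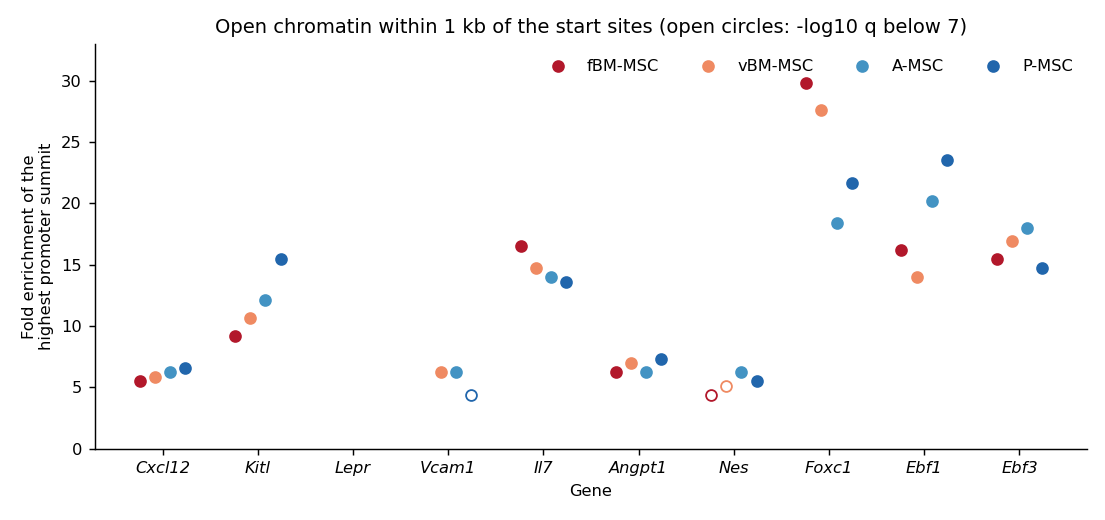
Fold enrichment (vertical axis, from 0) of the highest open chromatin summit within 1 kb of the start sites of each niche gene, coloured by tissue, with open circles for summits under the threshold and no point where a list had no summit. Foxc1 was highest in both bone marrow lists at 29.8 and 27.6, Lepr had no point, and Ebf3 lay between 14.7 and 18.0 in all 4 lists.

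The bone marrow tissues were also compared with each non-bone marrow tissue by itself. Of the 9 genes tested, 4 were called in fBM-MSCs against A-MSCs (40.9% of all genes), all higher in fBM-MSCs: Il7, Angpt1, Foxc1 and Ebf3. Without A-MSC replicate 2, of these 4 only Il7 and Foxc1 were called. The Angpt1 call was also lost without fBM-MSC replicate 1 (adjusted p = 0.0647) or A-MSC replicate 3 (0.0845). In fBM-MSCs against P-MSCs 6 were called (47.7%), Cxcl12 and Vcam1 lower and Il7, Angpt1, Foxc1 and Ebf1 higher. In vBM-MSCs against A-MSCs 2 were called (25.6%), Foxc1 and Ebf3, both higher, and the number was 4 without vBM-MSC replicate 1 and 1 without A-MSC replicate 2 or 3. In vBM-MSCs against P-MSCs 6 were called (38.7%), Kitl and Vcam1 lower and Il7, Angpt1, Foxc1 and Ebf1 higher, and without vBM-MSC replicate 2 the number was 2. The Angpt1 call in vBM-MSCs against P-MSCs was also lost with limma on log2(TPM + 1) or log2(TPM + 0.1) (adjusted p of 0.087 and 0.083). So it was without P-MSC replicate 2 or 3 (0.052 and 0.053). Between the 2 non-bone marrow tissues 3 were called (30.9%), with more Cxcl12 and Vcam1 and less Ebf1 in P-MSCs, and 5 without fBM-MSC replicate 1 or 3. The single gene called between the 2 bone marrow tissues became 2 without fBM-MSC replicate 1 or vBM-MSC replicate 2 and 4 without fBM-MSC replicate 3. These comparisons share libraries, so their calls are not independent of each other.

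**Figure D4:**
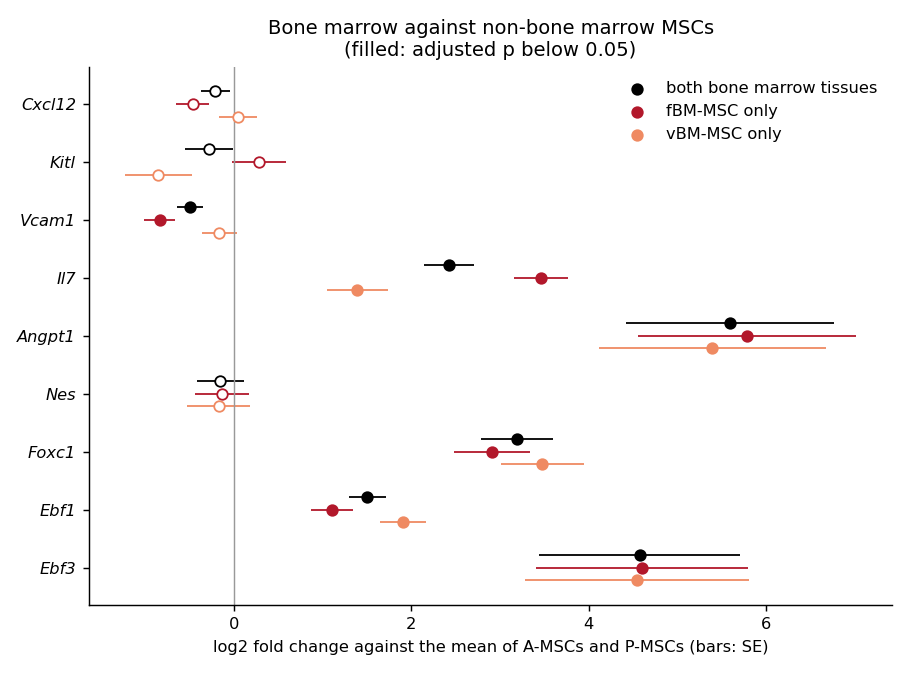
Log2 fold change of the 9 niche genes tested (horizontal axis, bars are SE) for both bone marrow tissues together (black), fBM-MSCs alone (red) and vBM-MSCs alone (orange), each against the mean of A-MSCs and P-MSCs. Filled points passed the test. Il7, Angpt1, Foxc1, Ebf1 and Ebf3 lie to the right in all 3 contrasts (without vBM-MSC replicate 2, Angpt1 for vBM-MSCs alone turns to -0.74 and Il7 and Ebf3 there lose their calls), Vcam1 is filled for both tissues together and for fBM-MSCs but not for vBM-MSCs, and Kitl lies on opposite sides at 0.29 and -0.85.

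Across the 11 libraries some pairs of the niche genes moved together on log2(TPM + 1). This is given as a description, since the libraries share tissue, mice and depth and no clustering was run. Angpt1 and Ebf3, which passed the filter only through bone marrow libraries, had the highest Pearson r of the 45 pairs among the 10 genes (0.97). Il7 followed Angpt1 at 0.87. Cxcl12 and Vcam1 had an r of 0.88 and Kitl and Nes one of 0.78. The lowest r was that of Vcam1 with Ebf1 (-0.74). Among 10952 genes with a mean of at least 1 TPM, the nearest to each of the 9 genes were Smoc1 for Cxcl12 (0.94), Tspan9 for Kitl (0.89), Mum1l1 for Vcam1 (0.96), Tmem104 for Il7 (0.99), Dnlz for Angpt1 (0.96), Nckap1 for Nes (0.92), Gclc for Foxc1 (0.99), 2210013O21Rik for Ebf1 (0.98) and Angpt1 for Ebf3.

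Of the receptors of the niche ligands, known mainly from the blood cells and vessels that receive the signals, some were near 0 in the MSCs and others were not. Cxcr4, the receptor of Cxcl12, did not exceed 0.07 TPM, Il7r did not exceed 0.15 TPM and Kit did not exceed 0.51 TPM in any library. The integrin chain Itga4 reached at most 0.29 TPM, and its partner Itgb1 had means of 489 to 905 TPM. Il2rg, which pairs with Il7r, averaged 8.05 TPM in fBM-MSCs and 0.18 to 2.93 TPM in the other tissues. Ackr3, which removes Cxcl12, averaged 6.66 TPM in fBM-MSCs, 27.9 TPM in vBM-MSCs, 7.40 TPM in A-MSCs and 15.4 TPM in P-MSCs (bone marrow contrast 0.38, adjusted p = 0.27). Of 17 receptors and modifiers, 13 were tested, 3 were called higher and 1 lower in bone marrow MSCs, where 24.8% and 22.4% of all genes tested were, so the share called higher was near the background, with a median log2 fold change of 0.31 against 0.03 over all genes. Angpt4, which like Angpt1 binds Tek, was higher in bone marrow MSCs by 3.51 on the log2 scale (SE 0.35, adjusted p = 1.1e-05), with means of 41.2 TPM in fBM-MSCs, 20.4 TPM in vBM-MSCs, 6.11 TPM in A-MSCs and 1.07 TPM in P-MSCs. Socs3, a brake on cytokine signals, was higher by 1.08 and Itgb1 by 0.39, and the cytokine kinase Jak2 was lower by 0.77 (adjusted p = 0.014). Itgb1 was highest in P-MSCs (905 TPM) and lowest in A-MSCs (489 TPM), with 851 TPM in fBM-MSCs and 895 TPM in vBM-MSCs.

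Of 25 other secreted or surface factors known from the niche, 18 were tested, 11 were called higher and 1 lower, where 24.8% and 22.4% of all genes tested were, with a median log2 fold change of 1.08 against 0.03 over all genes. This list was chosen with earlier results of these data known, so its count is a description only. Spp1, which encodes osteopontin, averaged 49600 TPM in fBM-MSCs and 5300 TPM in vBM-MSCs against 363 TPM in A-MSCs and 221 TPM in P-MSCs, and it is also made by osteoblasts, whose markers moved the same way. Il34, a ligand of the macrophage receptor Csf1r, was at 47.1 and 43.6 TPM in the bone marrow tissues and at 1.29 and 2.70 TPM in the others. Gas6, a ligand of the receptor kinases Tyro3, Axl and Mertk, was higher by 3.57 (SE 0.20, adjusted p = 1.9e-07). Il6 was lower by 1.24 (SE 0.22, adjusted p = 0.00071), but its mean of 93.7 TPM in vBM-MSCs lay above the 24.7 TPM of P-MSCs. It averaged 6.97 TPM in fBM-MSCs and 146 TPM in A-MSCs.

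Of 20 further transcription factors of niche stroma, 18 were tested, 7 were called higher in bone marrow MSCs and 5 lower, beside the same 24.8% and 22.4%, with a median of 0.42. Sp7, the factor of the bone-forming lineage, averaged 32.7 TPM in fBM-MSCs and 6.17 TPM in vBM-MSCs, and 0.09 TPM in P-MSCs. Cebpa, known from fat cell formation, was higher by 3.50 (SE 0.43) and Snai2 by 1.12 (SE 0.20). Tcf21, a factor of visceral mesenchyme, had no count in the 5 bone marrow libraries and averaged 4.29 TPM in A-MSCs and 0.86 TPM in P-MSCs. Against the 6 non-bone marrow libraries together (1.77 CPM) it was at least 90.9-fold lower in bone marrow MSCs, with a floor of 3 counts over the group. Twist2 was lower by 1.65 (SE 0.46) and Nr2f2 by 1.37 (SE 0.24). Ebf2, another relative of Ebf1, averaged 2.64 TPM in fBM-MSCs, 1.24 TPM in vBM-MSCs, 2.15 TPM in A-MSCs and 0.13 TPM in P-MSCs (adjusted p = 0.093).

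Of 18 other genes known from leptin receptor stroma, 17 were tested, 9 were called higher in bone marrow MSCs and 3 lower, again beside 24.8% and 22.4%, with a median of 1.22. As for the lists above, these genes were chosen with earlier results of these data known. Genes very low outside bone marrow, such as Chrdl1 and Igfbp5 here and Sp7 above, were not left out. The counts and medians of the lists are therefore a description only. Chrdl1, a binder of bone morphogenetic proteins, averaged 6.62 and 3.21 TPM in the bone marrow tissues against 0.14 and 0.07 TPM in A-MSCs and P-MSCs. Agt, which encodes angiotensinogen, was higher by 6.21 (SE 1.12) and Igfbp5 by 3.97 (SE 0.65), at means of at most 7.54 TPM. Pdgfra, a surface receptor of the same stroma, was lower by 2.33 (SE 0.26, adjusted p = 2.9e-05), with 0.59 TPM in fBM-MSCs against 7.34 TPM in A-MSCs. The lipase gene Lpl was lower by 2.26 (SE 0.71) and Mcam (CD146) by 1.58 (SE 0.35). The Mcam mean of 14.0 TPM in vBM-MSCs lay above the 9.16 TPM of P-MSCs. Adipoq, often the marker of the Cxcl12-rich marrow stroma, averaged 0.70 TPM in fBM-MSCs and 1.94 TPM in vBM-MSCs and was highest in A-MSCs at 5.77 TPM.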

How the data were processed

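RNA-seq libraries were made by the Smart-seq2 method, which keeps no strand and has no molecular identifiers. Per the labels and methods, the authors aligned reads to mm10 (iGenomes) with RSEM and STAR and deposited estimated counts, TPM and a mean transcript length per gene and library. ATAC-seq reads were aligned with Bowtie, cleared of duplicates, shifted for the transposase, freed of blacklisted regions and called with MACS2, and the authors deposited 1 list of summits per tissue, with a fold enrichment and a −log10 q each, that pools 6 runs of 3 replicates. The read depth of the ATAC-seq lists is not given in the sources used here. The third vBM-MSC RNA library was not analysed here.

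The 10 genes and the further gene lists were chosen with earlier results of these data known. Estimated counts were rounded to whole numbers and fitted with edgeR 4.0.16 (R 4.3.3; TMM normalization, quasi-likelihood test, 1 mean per tissue, 11 libraries), after a filter of at least 1 CPM in at least 2 libraries. P-values were adjusted over all 12509 genes tested by the Benjamini-Hochberg method. Fold changes are from this fit, SEs are the fold change divided by the root of F, and levels are TPM as deposited. The code was checked on simulated counts. DESeq2 1.42.0 and limma 3.58.1 were alternatives. The text names all 10 genes, for each the gene of the highest Pearson r, and from each list up to 3 genes called higher and 3 called lower with the largest change. Genes named beyond this rule (Cxcr4, Il7r, Il2rg, Kit, Itga4, Ackr3, Ebf2 and Adipoq, and from the marker lists Cd44, Ly6a, Cd34, Ptprc, Pecam1, Lyz2, Csf1r, Cd68, Krt19, Wt1, Lrrn4, Upk3b, Acta2, Rgs5, Emcn, Cdh5, Kdr, Vwf, Tubb3, S100b, Fabp4, Lep, Pax5, Cd79a, Cd79b and Vpreb1) were chosen after their values were seen. A promoter was taken as 1 kb on either side of a start site and a locus as the gene with 20 kb on either side, and summits of different lists within 500 bases were joined to 1 site. Start sites are from curated RefSeq transcripts of GRCm38 (mm10), and sequences are from the same build. Replicates are separate mice as far as the methods say. Floors of 3 counts for a count of 0 cover counting error only.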

Additional observations from a re-analysis of the deposited data

Results flagged for a closer look

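In the 6 non-bone marrow libraries, 2 single values stood apart from the other 5 by more than Dixon's critical value. Angpt1 was at 0.34 TPM (30 counts) in A-MSC replicate 1, against at most 0.09 TPM in the others, and Ebf3 was at 0.11 TPM (15 counts) in P-MSC replicate 1, against at most 0.02 TPM. Chance alone flags about 1 in 20 groups, and 20 groups were examined. Both values are below 1 TPM. Without these libraries the bone marrow contrast was still called for both genes.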

How the results depend on the processing

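Il7, Foxc1, Ebf1 and Ebf3 kept a call of higher in bone marrow MSCs in each of 20 alternatives (other tools, scalings, filters and pseudocounts, a replicate block, each library left out, and fBM-MSCs or vBM-MSCs alone). On log2(TPM + 1) the log2 fold change of Foxc1 was 1.44. Ebf3 had passed the filter only through bone marrow libraries. No alternative set A-MSCs apart from P-MSCs, and in the main fit Ebf1 was not called against A-MSCs in either bone marrow tissue. For genes that were not called, the sign turned for Cxcl12 with vBM-MSCs alone (0.047), for Kitl with fBM-MSCs alone (0.29) and for Nes without fBM-MSC replicate 3 (0.026, the highest of its values with 1 library left out, the lowest being -0.418 without fBM-MSC replicate 1). Leaving out 1 library at a time gave 4 to 5 genes higher and 0 to 2 lower in bone marrow MSCs, and 6 to 9 that differed among the 4 tissues. It gave 1 to 4 genes called between fBM-MSCs and vBM-MSCs, 2 to 6 between fBM-MSCs and A-MSCs, 6 to 8 between fBM-MSCs and P-MSCs, 1 to 4 between vBM-MSCs and A-MSCs, 2 to 6 between vBM-MSCs and P-MSCs, and 2 to 5 between A-MSCs and P-MSCs. Between fBM-MSCs and vBM-MSCs the number called was 3 with DESeq2, 2 with no filter, 2 with limma on log2(TPM + 1) or log2(TPM + 0.1), and 0 with those 2 tissues fitted alone. At that last setting Il7 had an adjusted p of 0.097. The other fits called Vcam1 as well, and DESeq2 also called Kitl. Between vBM-MSCs and A-MSCs it was 1 with a CPM filter of 0.1 and 1 with limma on log2(TPM + 1). Between A-MSCs and P-MSCs it was 5 with DESeq2 and 5 with the 2 tissues alone. The cause of these changes was not tested.

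Libraries of the same replicate number did not deviate together (15 pairs, Pearson r of -0.03 to 0.12, 1 of them above 0.1), so the numbers were not taken to pair the libraries. With a replicate block, 1 gene in place of 2 was called between vBM-MSCs and A-MSCs (Ebf3 lost), and 4 in place of 3 between A-MSCs and P-MSCs (Nes gained). The block also ended the call of Ebf3 among the 4 tissues (adjusted p = 0.050) and for vBM-MSCs against non-bone marrow (0.051), and Kitl gained both (0.032 and 0.045). Promoter summits at a −log10 q of at least 20 were left for 5 genes each in P-MSCs, A-MSCs and vBM-MSCs and for 4 in fBM-MSCs, beside 71.6%, 70.5%, 69.1% and 63.6% of all expressed genes. Sites held by 1 list only numbered 16 in fBM-MSCs, 13 in vBM-MSCs, and 11 for A-MSCs as for P-MSCs, or 15%, 12.1%, 10.3% and 10.3% of the 107 sites, beside 11.1%, 6.76%, 9.63% and 7.74% of all sites of the lists, and when regions of the other lists at any q were counted they numbered 7 in fBM-MSCs, 4 each in vBM-MSCs and P-MSCs and 2 in A-MSCs. Ebf3 and Lepr, under 1 TPM in every library, and Angpt1, under 1 TPM in 7 of the 11, rest on few counts.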
